A study of Mus musculus with 6 samples.

Results

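The transcripts of the normal mouse hindlimb bud were measured in 3 wild-type pools, which are 3 of the 6 pools of a study of the gene Lmx1b; the others are labelled Lmx1b -/- and are not used here. Embryos were of the 129Sv strain at the stage E11.5, in days of embryonic development, and no agent was given. About 500 µm of tissue at the base of each bud was taken, each pool held both hindlimb buds of 3 embryos, 6 buds in all, and each pool was read on 1 array. A pool is therefore an average over embryos, and a difference between pools has no replicate of its own; no test was run, and SD values measure the spread over the 3 arrays. After the control probe sets were dropped, 34945 of 45037 probe sets had exactly 1 gene symbol. They stood for 18193 genes, and each gene was read from its probe set with the highest mean over the 3 pools.

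At this stage the hindlimb bud is a core of proliferating mesenchyme inside a thin jacket of ectoderm. The mesenchyme makes cartilage, tendon and other connective tissue, while muscle precursors, endothelium, nerves with their glia, and blood enter from outside. Signals from the ectodermal ridge at the tip and from the polarizing region at the posterior margin pattern the bud, and Hox and other homeobox genes record position along it.

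Values are on the log2 scale, so a difference of 1 is 2-fold. The arrays had near-equal distributions, with medians from 4.96 to 4.98 over all probe sets. Pairs of pools correlated at 0.995 to 0.997 across probe sets, which are not independent of each other. As a level for unbound signal, 74 olfactory, vomeronasal and taste receptor genes were used, and the 95th percentile of their means, 4.30, was taken as the background level. By this rule 12347 of 18193 genes, 67.9%, lay above background, and the count of any list is to be read beside that share. The highest of the receptor genes read 5.95, so a value between 4.30 and 5.95 does not by itself show that a gene is expressed. A rank below is a rank of signal on these arrays, because probe sets bind with different strength, and it does not order the genes by copies of RNA. Across genes above background the median SD over pools was 0.0854.

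Genes of protein synthesis, the cytoskeleton, growth and the embryonic red cell gave the brightest signals. Of the 20 genes with the highest means, 13 had ribosomal protein symbols, among them Rps29, Rpl41, Rplp2, Rps28 and Rpl37a. Tmsb10, which encodes the actin-binding peptide thymosin beta 10, ranked first at 13.69 ± 0.02 (SD, n = 3). The others were Actb and Actg1, the cytoplasmic actins, Tpt1, a growth-associated protein, Eef1a1, which brings aminoacyl-tRNA to the ribosome, Hbb-y, an embryonic beta-like globin, and Igf2, the fetal growth factor. Igf2 read 13.17, 13.27 and 13.32 in pools 1 to 3. All 20 genes stayed within a narrow band, as the 0.04 range of Tmsb10 and the 0.15 range of Igf2 show. By symbol, 50 genes of ribosomal proteins and their paralogues were measured, with a median of 12.76. Of these 39 lay in the brightest 10% of genes, which starts at 9.14 and holds 1820 genes by construction.

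**Figure D1:**
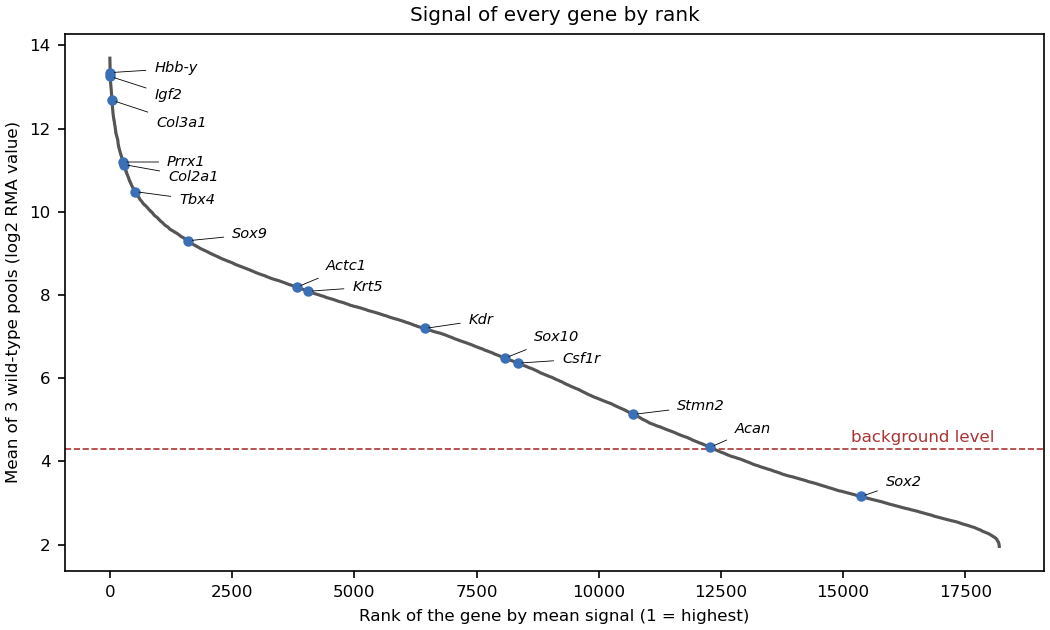
Mean log2 RMA value over the 3 wild-type pools (vertical axis) against the rank of each of the 18193 genes (horizontal axis), with 15 genes of different lineages marked and the background level of 4.30 dashed. The embryonic globin Hbb-y and Igf2 stand at the head of the curve, limb mesenchyme genes such as Prrx1 near it, and the spinal cord gene Sox2 under the background level.

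Genes of limb mesenchyme gave bright signals in all 3 pools. Of 20 genes on the limb mesenchyme list, all were measured, 18 lay above background (67.9% of all genes did) and 10 lay in the brightest 10%. The list's median was 9.13, beside 5.99 over all genes. Prrx1, a homeobox gene of early limb mesenchyme, read 11.22, 11.21 and 11.15 in pools 1 to 3, or 11.20 ± 0.04 (SD, n = 3). Pdgfra, a growth factor receptor of mesenchyme, read 11.16, 11.27 and 11.27, and Twist1, a bHLH factor needed for limb outgrowth, 10.22, 10.11 and 10.18. These 3 genes had ranges of at most 0.11, while the median range of the list was 0.233, beside 0.164 over all genes above background. Lmx1b, the dorsal mesenchyme factor, had the largest range on the list together with Snai1, a repressor of epithelial genes, at 0.59 each, and read 8.02, 7.58 and 8.17. Fgf10, the mesenchymal signal to the ridge, at 4.14, and Alx4, at 4.02, did not lie above background.

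The labelled limb and level could be checked against selector genes. Tbx4 and Pitx1, the hindlimb selectors, read 10.49 ± 0.15 and 10.27 ± 0.16 (SD, n = 3), and both were highest in pool 3. Tbx5, their forelimb counterpart, read 3.92, 4.40 and 4.49, with a mean of 4.27, just under the background level. Hoxc4 and Hoxc5, Hox genes better known from the forelimb level, lay above it at 6.32 ± 0.05 and 5.98 ± 0.03. Among 11 measured factors of the proximal limb, 11 lay above background and 6 in the brightest 10%, with a list median of 9.56. Shox2, needed for the proximal skeleton of the limb, read 11.44, 11.55 and 11.71. Meis1 and Meis2, TALE homeobox genes that mark the proximal bud, read 8.88 ± 0.06 and 9.56 ± 0.02, and Tbx18 read 10.43 ± 0.09. Markers of the distal bud gave a mixed picture. Hoxd13, expressed in the prospective foot, read 7.14, 7.58 and 7.90, lowest in pool 1 and highest in pool 3. Hoxa13 read 5.22 ± 0.18, Hoxd12 5.20 and Evx2 4.39. Each of these lay below the highest receptor gene, at 5.95, and so does not by itself show expression.

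In clusters A, C and D the brightest Hox signal was that of a gene of group 9 or 10. In all, 33 Hox genes were measured, of which 25 lay above background and 4 in the brightest 10%. The brightest gene of each cluster was Hoxa9 at 10.61, Hoxb3 at 6.66, Hoxc10 at 9.63 and Hoxd9 at 8.79. The dimmest were Hoxa4 at 3.28, Hoxb1 at 2.27, Hoxc13 at 4.26 and Hoxd1 at 2.65, all under the background level. The widest spread among Hox genes was that of Hoxd13, at 0.76, and it was followed in size by Hoxb13, which is under the background level, and Hoxa13 with 0.36 each.

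Signalling centres left a mixed trace. Of 15 measured genes of the ridge and polarizing region, 13 lay above background, 2 in the brightest 10%, and the median was 5.74. Hand2, a posterior bHLH factor, read 10.17 ± 0.08, and Ptch1, the Hedgehog receptor and a target of the pathway, 9.57 ± 0.14. Shh itself, the polarizing signal, read 6.89, 6.79 and 7.29. Of the FGF signals of the ridge, Fgf8 and Fgf4 lay close to the background level, at 4.45, 4.63 and 4.87 and at 4.67, 4.60 and 4.71, while Fgf9 read 6.26, 6.35 and 6.17. Dlx5, a homeobox gene of the ridge, had the largest range on this list, with 5.79 in pool 1, 6.39 in pool 2 and 6.64 in pool 3.

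Several early cartilage genes were well above background, and genes of mature cartilage and bone were near or under it. Of 23 measured cartilage genes, 19 lay above background (67.9% of all genes did) and 4 in the brightest 10%. Their median was 6.74, beside 5.99 over all genes. Sox9, the master factor of cartilage, read 9.22, 9.27 and 9.42. Col2a1, the main cartilage collagen, read 10.81, 11.19 and 11.41, and Col9a1, a collagen on the surface of its fibrils, 10.09, 10.35 and 10.32. All 3 genes were lowest in pool 1. Acan, the aggregating proteoglycan of cartilage matrix, was near the background level at 4.34 ± 0.23. Nkx3-2, Matn1, Comp and Matn3 of the same list lay under it, at 3.22, 3.33, 4.01 and 4.22. Of 8 measured genes of hypertrophic cartilage and bone, 2 lay above background, Sp7 at 4.54 and Alpl at 4.84. Col10a1, the collagen of hypertrophic cartilage, at 3.10, and the protease gene Mmp13, at 1.95, did not.

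Fibrous connective tissue gave bright collagen signals. Of 19 measured genes of tendon and connective tissue, 17 lay above background and 6 in the brightest 10%, with a median of 7.57. Col3a1, a fibrillar collagen of loose connective tissue, read 12.54, 12.75 and 12.76. Col1a2, a chain of type I collagen, read 11.17, 11.56 and 11.64, and Fn1, fibronectin, 10.95, 11.13 and 11.23. Pool 1 was the lowest for each of them. Scx, the tendon progenitor factor, read 5.86, 5.91 and 5.90, and Tnmd, a later tendon gene, lay at 2.53, under the background level.

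Muscle was represented by its regulators and by the first contractile genes. Of 15 measured regulators, 13 lay above background, and 1, Meox2 at 9.35 ± 0.09, lay in the brightest 10%. Pax3, which marks migrating muscle precursors, read 6.55, 6.24 and 6.33, and Myf5, an early determination factor, 6.27, 6.50 and 6.41. Myod1, its relative, read 6.47, 7.22 and 7.13, and Myog, which drives differentiation, 6.60, 7.54 and 7.08. Pax3 was highest in pool 1, whereas the later factors Myod1 and Myog were lowest there. Of 22 contractile genes, 19 lay above background (67.9% of all genes did) and 0 in the brightest 10%. Their median was 5.53, beside 5.99 over all genes. Actc1, the cardiac actin that embryonic skeletal muscle also uses, read 7.34, 8.90 and 8.33. Myh3, the embryonic myosin heavy chain, read 4.84, 6.27 and 5.47, and Tnnt1, a troponin T, 6.42, 7.68 and 7.22. For these contractile genes pool 1 was the lowest and pool 2 the highest.

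Nearly the whole set of endothelial genes was above background. Of 28 endothelial genes, 26 lay above background, with a median of 6.70, and 1 in the brightest 10%, the apelin receptor gene Aplnr at 9.75 ± 0.09. Pecam1, a junction protein of endothelium, read 6.69, 6.61 and 6.88. Cdh5, which encodes VE-cadherin, read 6.83, 6.57 and 7.15, and Kdr, the main VEGF receptor, 7.13, 7.06 and 7.40. Each of them was lowest in pool 2 and highest in pool 3. Lyve1, of lymphatic vessels and some macrophages, lay at 2.53, under the background level. Among 9 genes of mural cells, the contractile and supporting cells around vessels, 5 lay above background. Acta2, smooth muscle actin, which young skeletal muscle also expresses, read 8.30, 9.24 and 8.94, and Pdgfrb, a receptor of pericytes and mesenchyme, 9.92, 9.99 and 10.09. Rgs5 and Myh11, which are more specific to mural cells, were under the background level at 3.44 and 3.49.

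Most neuronal genes lay near or under the background level, with a list median of 4.52. Of 22 measured genes, 13 lay above background, a share close to the 67.9% of all genes. Tubb3, a neuronal tubulin, read 4.56 ± 0.08, Elavl3, an RNA-binding protein of neurons, 4.34 ± 0.02, and Stmn2, a growth cone protein, 4.88, 5.17 and 5.33. The 3 brightest were Isl1 at 8.20, Dcx at 8.14 and Gap43 at 7.95; Isl1 is also a gene of hindlimb mesenchyme. The synaptic gene Snap25, at 2.29, and the motor neuron genes Mnx1 and Chat, at 3.11 and 3.00, did not lie above background. Of 8 measured genes of Schwann cells and neural crest, 4 lay above background, beside 67.9% of all genes. Sox10, the identity factor of these cells, read 6.19, 6.68 and 6.57. Erbb3, the neuregulin receptor, read 6.62, 7.26 and 7.26, Ngfr 6.79 ± 0.25 and Mbp 5.21 ± 0.12. Of 6 melanoblast genes 3 lay above background, among them Pmel at 4.99 and Mitf at 4.71, while Dct, at 3.73, did not.

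Of 28 genes of the ectodermal jacket, 25 lay above background (67.9% of all genes did) and none in the brightest 10%. Their median was 5.93, beside 5.99 over all genes. Krt5 and Krt14, paired keratins of basal epithelium, read 7.80, 8.27 and 8.20, and 6.75, 7.50 and 7.18. Epcam, an epithelial adhesion molecule, read 7.29, 7.14 and 7.25, and Trp63, the factor for stratified epithelium, 6.46 ± 0.22. Both keratins were lowest in pool 1, but Epcam was lowest in pool 2.

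Embryonic red cells left bright globin signals. Hbb-y read 13.38, 13.32 and 13.34, Hba-x 12.13, 12.13 and 12.21, and Hbb-bh1 12.24, 11.92 and 12.08. All 3 lay in the brightest 10%. Of 3 measured adult-type globins, Hba-a2 at 5.11 and Hbb-b2 at 5.79 lay above background and Hba-a1, at 2.98, did not. Globin genes are near-identical copies in part, so these adult-type values are uncertain. Among 18 other measured erythroid genes, 16 lay above background (67.9% of all genes did), with a median of 5.62, beside 5.99 over all genes. Slc4a1, the band 3 anion exchanger, read 6.99, 7.04 and 7.13, Alas2, which starts haem synthesis in red cells, 6.63, 6.65 and 6.94, and the erythroid factor Gata1 4.32 ± 0.06, next to the background level. Of 7 measured megakaryocyte genes 6 lay above background, led by the platelet factor gene Pf4 at 7.80 ± 0.22. Macrophage genes were above background in 17 of 21 cases (67.9% of all genes were). The median of the macrophage list was 4.998, beside 5.99 over all genes. This median lay below the highest receptor gene, at 5.95, so the count does not by itself show that these genes are expressed. Csf1r, the receptor for the macrophage growth factor, read 6.21, 6.46 and 6.40, and Adgre1, the F4/80 antigen, 4.79 ± 0.19. Of 9 measured genes of lymphocytes, granulocytes and mast cells 1 lay above background, Cd3e at 5.62, and its partner Cd3d did not, at 4.02. In bulk tissue such as this, fewer cells of a type and less RNA per cell cannot be told apart.

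Tissue next to the limb left little signal. Of 8 spinal cord genes 1 lay above background, Sox3 at 4.61, while Sox2, at 3.16, and Olig2, at 2.15, did not. Of 7 somite genes 3 did, Meox1 at 7.26, Pax1 at 6.27 and Pax9 at 6.07, all known in limb girdle or limb tissue too, and Tbx6 and Uncx did not, at 4.12 and 2.83. Of 5 measured nephrogenic and gonadal genes Wt1 alone lay above background, at 4.47. Of 8 liver and gut genes 4 did, from 4.77 for Apoa2 to 5.56 for Ttr, and the liver products Afp and Alb did not, at 3.48 and 3.13. Of 4 heart genes Nkx2-5 alone did, at 5.23. No gene of these 5 lists lay in the brightest 10%.

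**Figure D2:**
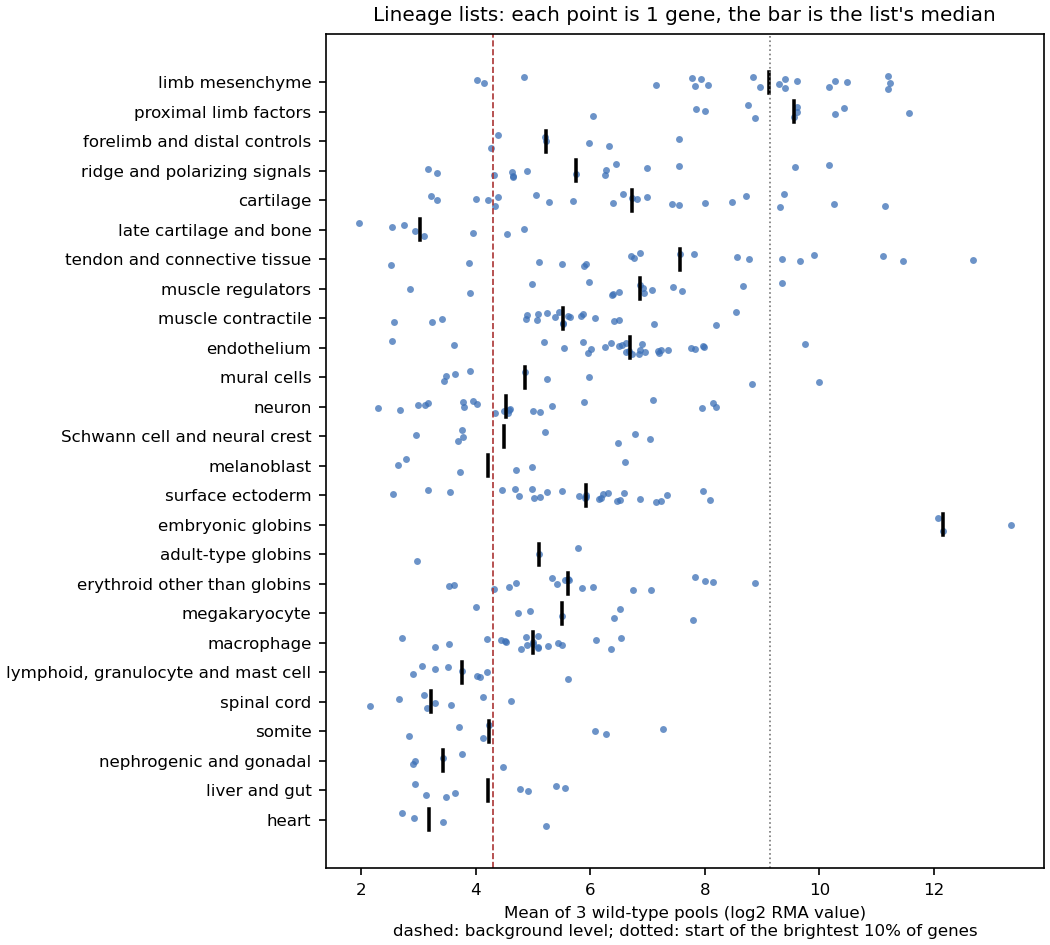
Mean log2 RMA value over the 3 wild-type pools (horizontal axis) for each measured gene of 26 lineage lists (rows), with the list median as a bar, the background level of 4.30 dashed and the start of the brightest 10%, 9.14, dotted. Limb mesenchyme, proximal factors and embryonic globins have medians around or above the dotted line, and the lists of late cartilage and bone, spinal cord, heart and kidney lie mostly left of the dashed line.

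Differences between the 3 pools were small for most genes. Among genes above background the median range, the highest minus the lowest pool, was 0.164, and 101 of 12347 genes, 0.818%, ranged at least 2-fold. The count leans on 2 pools: without pool 1 it was 13, without pool 3 it was 34, and without pool 2 it was 75. The members nearest to the threshold were Amacr, Col6a2 and Mia, with ranges of 1.01, 1.01 and 1.00, and the nearest outside it were Zfp950, Lox and Klhl4, with 0.998, 0.99 and 0.99. The 101 genes followed a few patterns. In 54 pool 1 was the highest and pool 3 the lowest, an order held by 18.6% of all genes above background. A further 22 were highest in pool 2 and lowest in pool 1, and 16 highest in pool 3 and lowest in pool 1. A second probe set above background was present for 47 of the 101 genes. In 45 of them it named the same highest pool, in 39 the same lowest pool and in 38 both. The second probe set itself ranged at least 2-fold in 19 of the 47. This comparison checks the probe and not the embryos, since both probe sets read the same RNA.

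**Figure D3:**
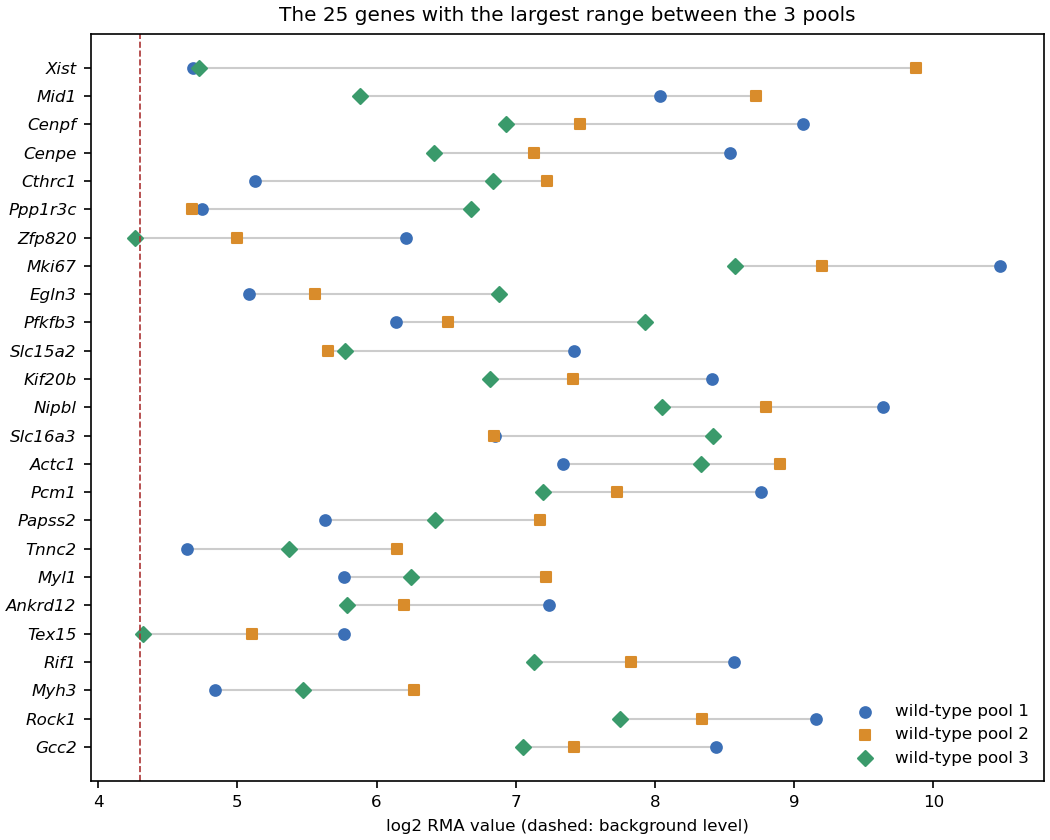
Log2 RMA values (horizontal axis) of the 25 genes above background with the largest range, with 1 marker per wild-type pool and the background level dashed. Xist stands apart with 9.88 in pool 2 alone, Cenpf, Cenpe, Mki67 and Nipbl are highest in pool 1 and lowest in pool 3, and Egln3, Pfkfb3 and Slc16a3 are highest in pool 3.

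Every measured gene on the list of the hypoxia response and glycolysis was highest in pool 3. Under low oxygen, hypoxia-inducible factor binds DNA at a short core motif and raises genes for glucose uptake, glycolysis, vessel growth and its own breakdown. Of 34 listed genes 31 were measured, and like the other lists this one was chosen with earlier results of these data known. All 31 measured genes lay above background, 14 in the brightest 10%. In all 31 the highest value was that of pool 3, which holds for 37.8% of all genes above background. Of the 31 genes 10 ranged at least 2-fold, beside 0.818% of all genes. Relative to its 3-pool mean, the median member stood at -0.28 in pool 1, -0.18 in pool 2 and 0.47 in pool 3. Without pool 2 the level of pool 3 was 0.37, and without pool 1 it was 0.32. Each is taken from the mean of the pools kept, so its size cannot be set against the 3-pool level.

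The list's members ranged from oxygen sensors to enzymes. Egln3, a prolyl hydroxylase that marks the factor for breakdown, read 5.08, 5.56 and 6.88 in pools 1 to 3, a 3.48-fold range. Bnip3, a regulator of mitochondrial turnover, read 8.91, 9.12 and 10.11, and Vegfa, the vessel growth factor, 7.40, 7.63 and 8.51. Pool 3 stood clear of both others for each. Of the transporters, Slc2a1, which takes up glucose, read 8.76, 8.96 and 9.82, and Slc16a3, which exports lactate, 6.85, 6.85 and 8.41. Of the enzymes, Hk2, which traps glucose in the cell, read 7.73, 8.02 and 8.96, and Pfkfb3, which is not on the list and makes the activator of phosphofructokinase, 6.14, 6.51 and 7.93. The bright housekeeping enzymes moved less. Ldha, lactate dehydrogenase, read 11.42, 11.45 and 11.98, and Pgk1 read 11.71, 11.70 and 12.17. Ppp1r3c, a glycogen-targeting subunit of a phosphatase, which is also outside the list, read 4.74, 4.67 and 6.68.

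The promoters of the list's genes were searched for the core motif ACGTG on either strand. RefSeq windows of assembly GRCm38.p6, from 250 bases before to 50 after each start, were matched to 29 of the 31 genes. The motif was in 23 of them, 79.3%, beside 21.8% of 27025 genes in the table. Those 27025 genes were not limited to genes measured here or above background. The list was written from genes of the hypoxia response and glycolysis, so a high share could arise whatever the pools showed. In the 250 bases before the start alone, a window chosen after seeing the data, it was in 19, or 65.5%, beside 18.5%. A match describes these letters and is not evidence of binding. The palindrome CACGTG holds the motif on both strands. Of the 10 members that ranged at least 2-fold, Ndrg1 and Bhlhe40 had no matched window and Pfkp had no match in its own. The windows below are a selection from the others, which leaves out the match of Vegfa and further matches of Ankrd37 and Hk2. They run 5′ to 3′ on the gene's strand, with the motif, or its reverse complement CACGT, in capitals.

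Bnip3, chr7:138909584-138909639, minus strand, 108 bases before the start: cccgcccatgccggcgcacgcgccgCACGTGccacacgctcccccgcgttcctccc
Slc2a1, chr4:119108684-119108738, plus strand, 36 bases before the start: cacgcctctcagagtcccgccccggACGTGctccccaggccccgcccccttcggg
Egln3, chr12:54204074-54204124, minus strand, 229 bases before the start: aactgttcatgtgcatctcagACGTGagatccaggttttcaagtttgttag
Ankrd37, chr8:45999851-45999881, minus strand, 6 bases before the start: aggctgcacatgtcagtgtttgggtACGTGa
Hk2, chr6:82774477-82774531, minus strand, 52 bases before the start: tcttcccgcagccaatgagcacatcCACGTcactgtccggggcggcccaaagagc
Slc16a3, chr11:120949015-120949066, plus strand, 27 and 14 bases before the start: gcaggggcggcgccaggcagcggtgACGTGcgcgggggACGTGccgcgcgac

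The Bnip3 window holds the palindrome, that of Slc16a3 holds the motif at 2 places, and that of Hk2 shows it on the opposite strand. Ankrd37, an ankyrin repeat gene known as a hypoxia target, read 5.47, 5.56 and 6.66 in pools 1 to 3. Other stress lists did not share this size of difference. The 17 immediate early genes above background had pool levels of -0.11, 0.02 and 0.10, with 13 highest in pool 3 and 16 lowest in pool 1. Ier3, with 4.55, 4.58 and 5.53, had the largest range among them. In the 9 heat shock genes above background the levels lay between -0.05 and 0.03. Hsp90aa1, a cytoplasmic chaperone, was highest in pool 1 and lowest in pool 3, with 12.20, 11.78 and 11.58. The 16 measured genes of cholesterol synthesis stood at 0.00, -0.08 and 0.07, and the 12 genes of the amino acid stress response above background within 0.01 of 0. Endothelial genes, among them the VEGF receptor gene Flt1 at 5.62, 5.69 and 6.56, stood at -0.04, -0.05 and 0.10, with 19 of 26 highest in pool 3. Embryonic globins stood at 0.04, -0.03 and 0.00. The part of tissue handling, vessel content or embryo stage in the pool 3 values was not tested.

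Contractile and matrix genes were lowest in pool 1. Of all genes above background 45.8% had their lowest value in pool 1, 23.4% in pool 2 and 30.7% in pool 3. Against this, pool 1 was the lowest for 19 of 19 contractile muscle genes, 17 of 17 tendon and connective tissue genes and 17 of 19 cartilage genes. The highest pool was pool 2 for 15 of the 19 contractile genes and 10 of the 19 cartilage genes, beside 33% of all genes. The median contractile gene stood at -0.36 in pool 1, 0.39 in pool 2 and 0.02 in pool 3, and 8 of them ranged at least 2-fold. Pool 1 stood at -0.31 for cartilage and -0.29 for tendon and connective tissue. When pool 2 was left out, the pool 1 levels of the contractile, cartilage and tendon lists were -0.20, -0.20 and -0.16. These are taken from the mean of the pools kept, so their size cannot be set against the 3-pool levels. The contractile level depended on which members were counted, at -0.63 for those brighter than the median gene and -0.19 without probe sets that may cross-hybridise.

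**Figure D4:**
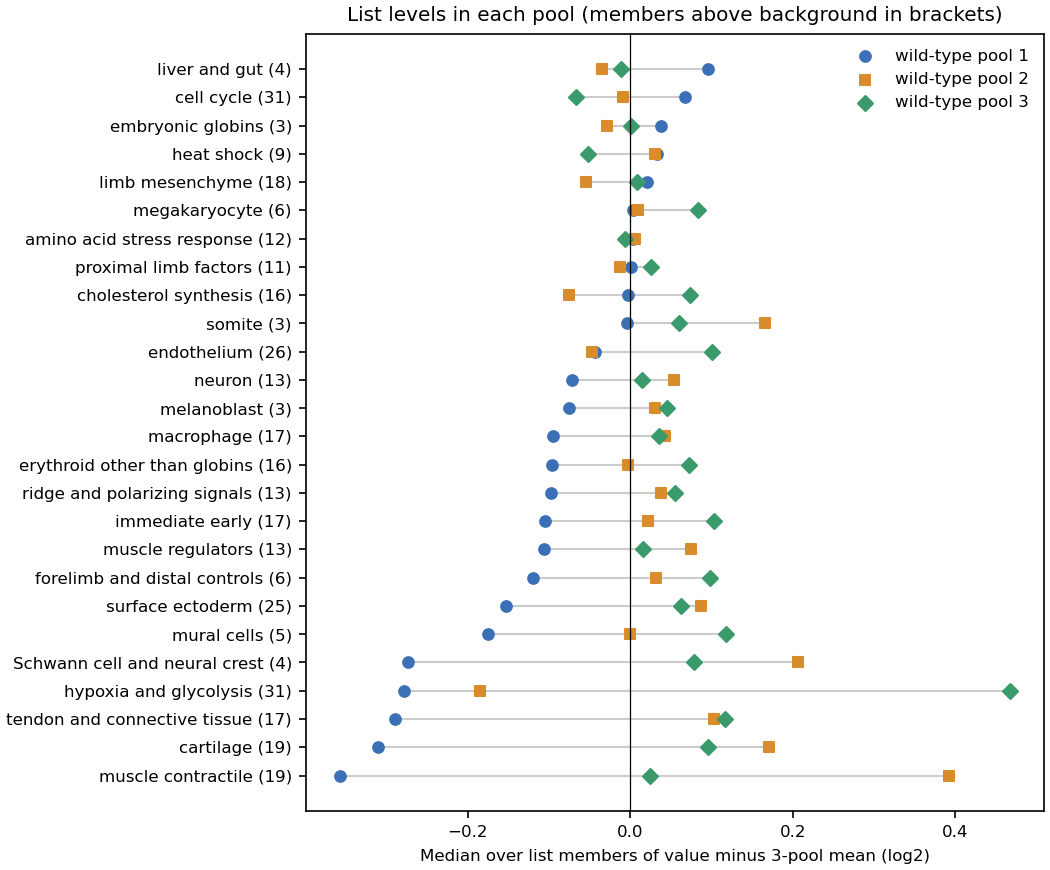
For each list with at least 3 genes above background (rows), the median over its members of the value in a pool minus the gene's 3-pool mean (horizontal axis, log2), with 1 marker per wild-type pool. Pool 3 stands out at 0.47 for hypoxia and glycolysis, pool 1 lies lowest for the contractile, cartilage, tendon and Schwann cell lists, and limb mesenchyme and proximal factors stay within 0.06 of 0.

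Single genes show the size of these differences. Tnnc2, fast troponin C, read 4.63 in pool 1, 6.15 in pool 2 and 5.37 in pool 3, and Myl1, a myosin light chain, 5.76, 7.21 and 6.25. In both, pool 3 lay between the others. Gdf5, the growth factor of forming joints, read 6.40, 7.51 and 7.08 and was the only cartilage list gene to range 2-fold. Lox, which cross-links collagen, read 6.20 in pool 1 and 7.19 in pools 2 and 3. Outside the lists, Cthrc1, a secreted collagen-associated protein, read 5.13, 7.22 and 6.83, Papss2, which makes the sulphate donor for cartilage proteoglycans, 5.63, 7.17 and 6.42, and Tnc, the matrix protein tenascin C, 5.59, 6.77 and 6.58. The same order appeared in lists of other origin. Pool 1 was the lowest for 4 of 4 Schwann cell and neural crest genes, with a list level of -0.27, and for 17 of 25 ectodermal genes, with a level of -0.15. The same pool was lowest for 16 of 17 immediate early genes and 5 of 5 mural cell genes above background. Limb mesenchyme did not follow it: 9 of its 18 genes were highest in pool 1, which is the highest pool for 29.2% of all genes above background. Whether the pools differed in stage or in how much tissue was cut was not tested.

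The 54 genes that ranged 2-fold with pool 1 highest and pool 3 lowest included Cenpf, Cenpe, Mki67 and 11 genes with zinc finger symbols; those named here beyond the widest were chosen after their values were seen. Cenpf and Cenpe, proteins of the kinetochore, read 9.07, 7.46 and 6.93, and 8.54, 7.13 and 6.41. Mki67, the proliferation marker that coats mitotic chromosomes, read 10.48, 9.20 and 8.57, and Kif20b, a kinesin of cell division, 8.41, 7.41 and 6.82. In each of them pool 1 lay at least 2-fold above pool 3, which follows from how the 54 genes were chosen. Nipbl, the cohesin loader, read 9.64, 8.80 and 8.05, Rif1, which times replication, 8.56, 7.83 and 7.13, and Rock1, a kinase of the actomyosin cortex, 9.16, 8.34 and 7.75. Smc3, a ring subunit of cohesin, read 9.20, 8.60 and 8.05. The zinc finger symbols made up 20.4% of the 54 genes, beside 2.48% of all genes above background. Zfp820 was the widest of them, with 6.21 in pool 1 and 4.26 in pool 3. Zinc finger genes of this kind have near-identical copies, so the gene behind such a probe set is uncertain.

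The cell cycle list leaned the same way but did not share the size of this difference. All 31 measured cell cycle genes lay above background, 25 of them in the brightest 10%, with a median of 10.17. Their median level was 0.07 in pool 1 and -0.07 in pool 3. Pool 1 was the highest for 21 of the 31, beside 29.2% of all genes above background. Pool 3 was the lowest for 24, beside 30.7%. Mki67 and Cenpe, 2 of the 31, ranged at least 2-fold. Top2a, which untangles replicated DNA, read 11.31, 11.06 and 10.86, whereas Pcna, the replication clamp, read 12.15, 12.10 and 12.03 and Cdk1, the mitotic kinase, 10.58, 10.61 and 10.55. The 54 genes also had long gene bodies. Their median span in RefSeq was 50.4 kb, beside 22.9 kb for all genes above background and 23.6 kb for the other 47 genes that ranged 2-fold. Probe sets at the ends of control transcripts varied between pools as well: the 3′ minus the 5′ value of pyruvate carboxylase was 0.77, 1.06 and 1.26 in pools 1 to 3, that of beta-actin 0.21, 0.33 and 0.24, and that of Gapdh 0.12, 0.08 and 0.08. Transferrin receptor, whose control probe sets are dim, had the opposite order to pyruvate carboxylase, with 1.97, 1.65 and 1.60. The part of RNA integrity or labelling in the pool 1 values was not tested.

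**Figure D5:**
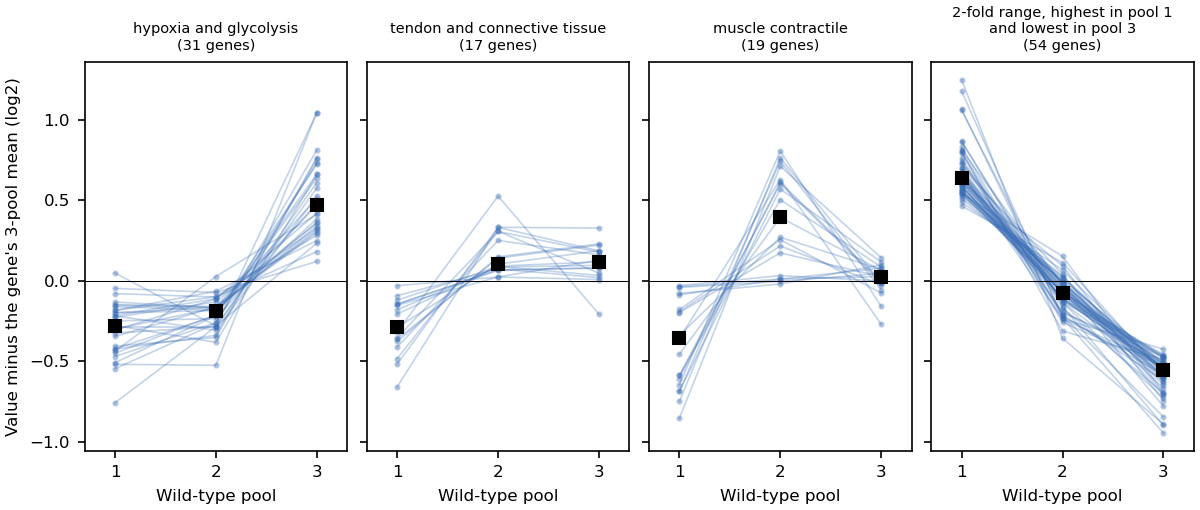
Value minus the gene's 3-pool mean (vertical axis, log2) in wild-type pools 1 to 3 (horizontal axis) for 3 lists and for the 54 genes that were highest in pool 1, lowest in pool 3 and ranged 2-fold; a line joins the values of 1 gene, and squares are medians. The squares of the hypoxia list stand at -0.28, -0.18 and 0.47, those of the contractile list at -0.36, 0.39 and 0.02, and the 54 genes share their order because they were chosen by it.

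The widest range of all belonged to Xist, the RNA that coats the inactive X chromosome of female cells. It read 4.68 in pool 1, 9.88 in pool 2 and 4.72 in pool 3, a 36.6-fold range, and a second probe set read 2.46, 9.13 and 2.84. Of 4 genes of the Y chromosome above background, 3 were lowest in pool 2 without being lost there. Eif2s3y, a translation factor, read 7.12, 6.00 and 6.90, Kdm5d, a histone demethylase, 6.82, 5.83 and 7.07, and Uty 6.43, 5.68 and 6.16. The labels do not give the sex of the embryos in a pool. Mid1, an X-linked ubiquitin ligase gene, followed Xist in the size of its range with 8.03, 8.72 and 5.88, but its other probe sets were dim and flat, between 2.69 and 4.24. Slc15a2, a peptide transporter, was the one gene among the 25 widest that was highest in pool 1 and lowest in pool 2, at 7.42, 5.65 and 5.78. Its other probe sets were dim, between 3.38 and 4.06, and did not have that order.

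Some genes hardly moved at all. Among genes brighter than the median gene above background, the 10 smallest ranges belonged to Noa1, Nudt14, Ubqln1, Gja1, Vta1, Ccnq, Cnot8, Arl2bp, Surf6 and Lbr. Gja1, which encodes connexin 43, a gap junction protein, read 11.44 in all 3 pools, and Ubqln1, a shuttle to the proteasome, 10.26. Gli3, the Hedgehog-regulated repressor of limb mesenchyme, read 9.41, 9.40 and 9.39.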

How the data were processed

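Per the submitters' processing notes, the log2 values that the authors deposited come from RMA, robust multi-array averaging, in which background is corrected, arrays are quantile normalized and a probe set's probes are summarised; the version is not stated. The base was read from their range, since no label states it. RMA fits arrays together, so arrays outside this description may have shaped these values. Per the labels, tissue was kept in RNAlater and its RNA was taken up in Trizol, cleaned on columns and checked for integrity on a Bioanalyser.

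Of 45101 probe sets 64 controls were dropped, and 932 with several symbols and 9160 unnamed here were left out. RefSeq held the identifiers of 18031 of 18193 genes. List symbols with no single-symbol probe set, such as Gapdh, were not analysed here.

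Levels, ranges and lists were computed with Python 3.11.15, pandas 2.3.3 and NumPy 2.4.6, and the code was tested on simulated data. Named genes are the 20 brightest, the 25 widest, the 10 steadiest, the extreme Hox genes, ribosomal protein symbols as a family (without S6 kinases and a binding protein that share the prefix), and from each list its first 3, brightest 3 and widest member. Other names were chosen after their values were seen. The genes and lists were chosen with earlier results of these data known. Alternatives varied the probe set, the scaling, the background, the size of range, the summary and the pools.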

Additional observations from a re-analysis of the deposited data

How the results depend on the processing

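Of 829 alternative values for 91 results, 742 stayed within the spread of the pools or within 1.5 times a count, 87 moved further and 0 reversed. Only a list level could be counted as reversed, and it was not computed when its own pool was left out. The 0 therefore says nothing about counts, ranges, probe sets or motifs. Of the 87, 21 came with the median of all genes as background and 9 with the 99th percentile of receptor genes. The 101 genes that ranged at least 2-fold became 66 with the median of all genes as background, 36 with a mean above the median of genes above background, and 449 at 1.5-fold; leaving out 1 pool gave 13 to 75. Genes whose second probe set named the same highest pool, 45, became 22 with the median of all genes as background and 5 to 40 with 1 pool left out. Fewer genes or pools enter these settings by construction. Centring the arrays or repeating quantile normalization gave 102 and 101 genes. No paired analysis was possible because only 1 group was analysed, so pool numbers pair nothing. Signals near the background level understate differences, and 3 arrays limit the precision.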

Other observations

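Imprinted genes, a list chosen after seeing the data, were bright. Of 21 measured genes 21 lay above background and 12 in the brightest 10%, with a median of 10.05. After Igf2 the highest were Gnas at 12.83, which encodes a G protein subunit, Mest at 12.68 and Nnat at 12.33. Cdkn1c, a growth-restraining cell cycle inhibitor, read 11.52, and Dlk1, a Notch-like inhibitor of differentiation, 10.05. The noncoding RNA Meg3 read 10.64, 11.20 and 11.02 in pools 1 to 3, and Phlda2 had the largest range of the list at 5.29, 5.97 and 5.78.

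Rps16, a core ribosomal protein gene, read 2.71, 2.26 and 2.54 in pools 1 to 3, the lowest mean of the 50 genes with ribosomal protein symbols, and the position of its probe set is not known here. Sry, the testis-determining gene of the Y chromosome, read 5.61, 5.57 and 5.43, without the lower pool 2 value that Eif2s3y and Kdm5d had. Erdr1, which like part of Mid1 lies in the pseudoautosomal region, read 10.55, 11.73 and 10.86, highest in the pool with high Xist.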
